A study of Ogataea parapolymorpha with 8 samples.

Results

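Urea and ammonium use in the methylotrophic yeast Ogataea parapolymorpha is followed here through 9 genes among the 5428 genes in the deposited count table. Of these, 4 were taken by gene identifier (the urea transporters DUR3 and DUR32 and the ammonium transporters MEP2 and MEP1), and 5 by the Saccharomyces cerevisiae homolog that the authors' deposited table lists (DUR1,2, GDH1, GLN1, GLT1 and GDH2). Each of those homologs matched 1 gene, and all 9 genes passed the filter on low counts, DUR32 only through the groups where it was high. Their RNA was measured by sequencing of 8 libraries in 4 groups of 2.

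Both wild-type groups are the strain CBS11895, grown as chemostats (dilution 0.1 per h, pH 6) on a medium whose label names urea, with pluronic acid as antifoam and 10 mg/L ergosterol. The feed of the group labelled micro-aerobic held 20 g/L glucose with 420 mg/L Tween 80, and that of the group labelled aerobic 7.5 g/L glucose with 84 mg/L Tween 80. Both mutant groups are the strain IMX2167, labelled as deleted for GUT2 and for NDI and NDE genes, in aerobic SM medium with 7.5 g/L glucose, as a batch culture at pH 6 or as a chemostat (dilution 0.1 per h, pH 5). The labels name no nitrogen source, antifoam, Tween 80 or ergosterol for the mutant cultures, and both groups of each strain share the strain's background. Strain, medium, additives and, for the chemostat, pH therefore differ together between mutant and wild type and cannot be told apart. The sample titles carry 1 code for each wild-type group and a further pair of codes that the mutant batch and chemostat share, so what those codes stand for cannot be told apart from the wild-type labels or from the strain.

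Yeasts take up urea through active transporters of the DUR3 family and split it in the cytosol with urea amidolyase, a biotin enzyme encoded by DUR1,2, into ammonia and carbon dioxide. Ammonium from outside enters through permeases of the MEP family. Inside the cell it is fixed into glutamate by the NADP-dependent glutamate dehydrogenase Gdh1 and into glutamine by the glutamine synthetase Gln1, while Glt1 makes glutamate from glutamine and 2-oxoglutarate and the NAD-dependent dehydrogenase Gdh2 releases ammonium from glutamate; in S. cerevisiae the transporters and several of these enzymes are repressed on preferred nitrogen sources.

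Total counts ran from 6104949 to 11126081 per library, and replicates differed by more than sampling noise. GUT2, labelled as deleted in the mutant, stood at 349 and 387 CPM (counts scaled to library size, group means) in wild type labelled micro-aerobic and aerobic, against 103 CPM in the mutant batch and 28.6 CPM in the mutant chemostat, and NDE1 at 53.7, 69.2, 4.94 and 0.511 CPM in the same order. Raw counts of GUT2 were still 976 and 1084 in the mutant batch libraries, and why reads of this gene remained was not tested. The oxygen labels of the wild type need care, since 2 genes known in S. cerevisiae to be induced at low oxygen were lower in the libraries labelled micro-aerobic. HEM13 stood at 58.8 ± 3.45 CPM there against 1148 ± 75.9 CPM in the libraries labelled aerobic, and ERG11 at 292 ± 1.12 against 11783 ± 881 CPM (SD, n = 2 each). ICL1, a glucose-repressed gene of the glyoxylate cycle, stood at 728 ± 77.4 against 2.29 ± 1.89 CPM. In the mutant batch and chemostat, both labelled aerobic, HEM13 had group means of 133 and 86.5 CPM. ERG11 had 410 and 246 CPM there, and ICL1 2.74 and 40.6 CPM. These 3 genes were chosen after their values were seen, whether the labels are exchanged was not tested, and every direction between the wild-type groups below rests on the labels as deposited.

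DUR3, the annotated urea active transporter (OPAR_002760, chromosome 4, 1285014 to 1287178, minus strand, 2 exons), was abundant in the wild type and low in the mutant. It stood at 407 and 448 CPM with the micro-aerobic label, 1082 and 1306 CPM with the aerobic label, 29.7 and 31.0 CPM in the mutant batch, and 42.5 and 50.6 CPM in the mutant chemostat. No group overlapped another, and each step in that order of levels passed the test. The gene was lower with the micro-aerobic label by a log2 change of -1.48 ± 0.14 (SE), with an adjusted p of 1.7e-06 by edgeR's quasi-likelihood test, Benjamini-Hochberg adjusted over all genes, which also gave every adjusted p that follows unless another tool is named. Against the wild type labelled aerobic, it was 25.6-fold lower in the mutant chemostat (-4.68 ± 0.17 on the log2 scale, adjusted p = 5e-11) and lower still in the mutant batch (-5.30 ± 0.17, adjusted p = 3.8e-11). The change between mutant batch and chemostat was small (-0.62 ± 0.16, adjusted p = 0.0046), and without batch replicate 1 its adjusted p was 0.0587. Since CPM is a share of a library's RNA, fewer cells that express a gene and less of its RNA per cell cannot be told apart here.

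DUR32, annotated as a probable second urea active transporter (OPAR_000020, chromosome 1, 41756 to 43762, minus strand, 1 exon), followed another order and had few counts in 2 of the groups, so its counts are given first. Its raw counts were 4 and 6 with the micro-aerobic label, 246 and 403 with the aerobic label, 60 and 79 in the mutant batch, and 3 and 6 in the mutant chemostat. Scaled to CPM, these were 0.638 and 0.958, 46.9 and 63.6, 6.82 and 6.91, and 0.295 and 0.531. The wild type labelled aerobic thus stood highest and the mutant batch second, with the other two groups overlapping in counts and not separated by the test (-0.91 ± 0.64, adjusted p = 0.3). Summed over replicates, the wild type labelled aerobic held 70.2 times the level of the wild type labelled micro-aerobic (95% interval 37.9 to 147, counting error only). The mutant batch held 16.4 times the level of the mutant chemostat (8.39 to 36.6). Fitted changes were -6.09 ± 0.35 for the wild-type labels (adjusted p = 5.6e-09) and 3.99 ± 0.40 for batch against chemostat (adjusted p = 2.6e-06). DUR32 passed the filter on low counts only through the wild type labelled aerobic and the mutant batch, so these adjusted p-values lend the differences no support. By level, DUR3 and DUR32 changed in the same direction between the wild-type groups and in opposite directions between the mutant groups.

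The ratio of the 2 transporters within a library does not depend on scaling between libraries. DUR3 exceeded DUR32 in counts per kilobase by 591 and 433 times with the micro-aerobic label and by 21.4 and 19.0 times with the aerobic label. The ratio was 4.03 and 4.15 in the mutant batch and 133 and 88.4 in the mutant chemostat. DUR3 was the more abundant of the pair in all 8 libraries.

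In the annotation, 4 genes carry the urea transporter domain, and DUR3 and DUR32 are 2 of them. The other two, OPAR_002094 and OPAR_004500, were chosen by that domain and have no S. cerevisiae homolog in the authors' deposited table. OPAR_002094 stood at 8.61 and 9.42 CPM with the micro-aerobic label, 57.0 and 96.1 CPM with the aerobic label, 1.25 and 0.875 CPM in the mutant batch, and 6.20 and 3.80 CPM in the mutant chemostat. That is the order of groups seen for DUR3. Unlike for DUR3, the step from the wild type labelled micro-aerobic to the mutant chemostat did not pass for OPAR_002094 (-0.86 ± 0.33, adjusted p = 0.067). It was lower with the micro-aerobic label (-3.09 ± 0.29, adjusted p = 1.3e-06) and lower in the mutant batch than in the mutant chemostat (-2.24 ± 0.43, adjusted p = 0.00072). OPAR_004500 stood at 4.95 and 3.67 CPM, 13.5 and 18.1 CPM, 10.5 and 12.1 CPM, and 3.15 and 5.39 CPM in the same order of groups. As for DUR32, its 2 highest groups were the wild type labelled aerobic and the mutant batch, with changes of -1.88 ± 0.33 between the wild-type labels (adjusted p = 0.00041) and 1.39 ± 0.31 between batch and chemostat (adjusted p = 0.0019). The 4 genes of the domain were all lower with the micro-aerobic label, and between mutant batch and chemostat DUR3 and OPAR_002094 were lower in batch while DUR32 and OPAR_004500 were higher.

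**Figure D1:**
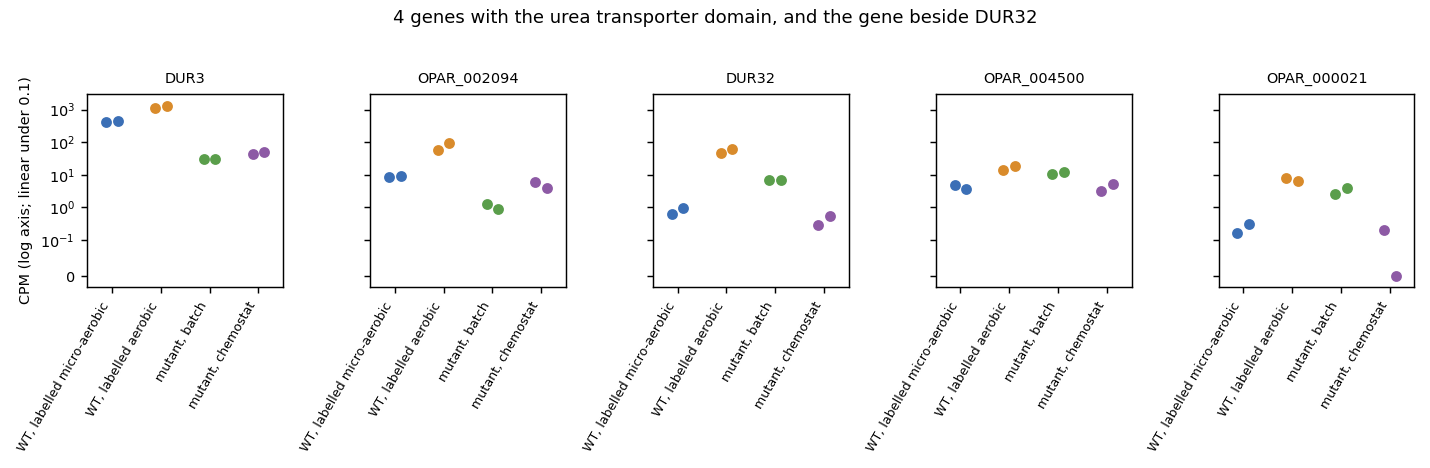
CPM in each library (points; vertical log axis, linear under 0.1) of the 4 genes with the urea transporter domain and of OPAR_000021, the amidase-domain gene beside DUR32, by group. All 5 genes are highest in the wild type labelled aerobic; DUR32, OPAR_004500 and OPAR_000021 have the mutant batch second, while DUR3 and OPAR_002094 have it lowest.

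The position of DUR32 bears on how its counts can be read. It overlaps OPAR_000019 on the other strand by a single base, and its upstream side abuts OPAR_000021 (43763 to 45633, plus strand), which runs away from it. OPAR_000021 carries the amidase signature domain, which 7 genes of the annotation hold, DUR1,2 among them, and its listed homolog in S. cerevisiae is YDR242W (AMD2, a putative amidase). Its raw counts were 1 and 2, 43 and 41, 22 and 44, and 2 and 0 in the libraries of the wild type labelled micro-aerobic, the wild type labelled aerobic, the mutant batch and the mutant chemostat. These low counts separate the same pairs of groups as those of DUR32, with fitted changes of -4.84 ± 0.68 between the wild-type labels (adjusted p = 6.1e-05) and 4.90 ± 0.75 between batch and chemostat (adjusted p = 0.00012). OPAR_000021 passed the filter on low counts only through the wild type labelled aerobic and the mutant batch. Its adjusted p-values therefore lend the differences no support. OPAR_000019, on the other side, went the opposite way, with group means of 63.0, 36.1, 39.8 and 87.3 CPM. Counting used no strand, so reads that span the borders of these genes cannot be assigned to one of them, and their part in the counts was not tested.

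DUR1,2, which encodes urea amidolyase (OPAR_004336, chromosome 6, 1216061 to 1221604, plus strand, 1 exon), separated wild type from mutant but not the wild-type labels. It stood at 407 and 320 CPM with the micro-aerobic label and at 364 and 452 CPM with the aerobic label, which overlap (-0.17 ± 0.17, adjusted p = 0.46). The mutant batch held 129 and 144 CPM and the mutant chemostat 92.7 and 68.8 CPM, both below every wild-type library. DUR1,2 was lower in the mutant chemostat than in the wild type labelled aerobic by a log2 change of -2.34 (adjusted p = 1.4e-07), and higher in the mutant batch than in the mutant chemostat by 0.76 (adjusted p = 0.003). Per kilobase, DUR3 exceeded DUR1,2 by 2.56 and 3.59 times with the micro-aerobic label and by 7.62 and 7.40 times with the aerobic label. The ratio was 0.591 and 0.551 in the mutant batch, where the enzyme's transcript exceeded the transporter's, and 1.17 and 1.88 in the mutant chemostat.

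MEP2, in S. cerevisiae a high-affinity ammonium permease (OPAR_002601, chromosome 4, 1041497 to 1043046, minus strand, 1 exon), had the widest range among the ammonium genes. It stood at 58.4 and 76.0 CPM with the micro-aerobic label and 1092 and 1102 CPM with the aerobic label. In the mutant it stood at 2610 and 2584 CPM in batch and 1061 and 1080 CPM in chemostat. The libraries labelled micro-aerobic lay far below all others and the mutant batch far above, with the wild type labelled aerobic and the mutant chemostat side by side. MEP2 was lower with the micro-aerobic label (-4.03 ± 0.17, adjusted p = 1.7e-10) and higher in the mutant batch than in the mutant chemostat (1.28 ± 0.15, adjusted p = 8.9e-06). Between the mutant chemostat and the wild type labelled aerobic it did not pass the test (-0.04, adjusted p = 0.84), and with upper-quartile scaling that value was 0.14. The mutant batch exceeded the wild type labelled micro-aerobic by 5.27 on the log2 scale (adjusted p = 4e-11).

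MEP1, the annotation's name for a low-affinity, high-capacity ammonium permease whose listed homolog is YPR138C (MEP3 in S. cerevisiae), lies on chromosome 3, 382835 to 384268, plus strand, 1 exon (OPAR_001430). Its CPM were 62.9 and 63.1, 175 and 171, 306 and 343, and 234 and 159 in the wild type labelled micro-aerobic, the wild type labelled aerobic, the mutant batch and the mutant chemostat. The groups stood in nearly the order of MEP2 but over a narrower range, with the libraries labelled micro-aerobic lowest (-1.46 ± 0.17 against the aerobic label, adjusted p = 1.2e-05). Batch exceeded chemostat by 0.72 on the log2 scale (adjusted p = 0.0022). The change between the mutant chemostat and the wild type labelled aerobic, whose libraries overlap, was 0.18 (adjusted p = 0.35), -0.12 without chemostat replicate 1 (adjusted p = 0.463) and 0.41 without chemostat replicate 2 (adjusted p = 0.0174). Per kilobase, MEP2 and MEP1 were about equal in the libraries labelled micro-aerobic, at ratios of 0.859 and 1.11, while MEP2 exceeded MEP1 by 4.20 to 7.88 times in the other 6 libraries.

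Of the 4 genes with the ammonium transporter domain, OPAR_000569 and OPAR_002695 are the ones not named MEP. OPAR_000569 had group means of 8.94, 6.75, 11.97 and 16.3 CPM in the wild type labelled micro-aerobic, the wild type labelled aerobic, the mutant batch and the mutant chemostat, and OPAR_002695 had 60.01, 40.9, 41.1 and 51.7 CPM. Between mutant batch and chemostat, where MEP2 and MEP1 both rose in batch, neither passed the test (adjusted p = 0.15 for OPAR_000569 and 0.1 for OPAR_002695). Without chemostat replicate 2, OPAR_000569 was lower in batch (-0.714 on the log2 scale, adjusted p = 0.026), opposite to both MEP genes. Between the wild-type labels OPAR_002695 was higher in the libraries labelled micro-aerobic (0.55 ± 0.17, adjusted p = 0.016), opposite to both MEP genes. That call was lost without micro-aerobic replicate 1 (adjusted p = 0.094), micro-aerobic replicate 2 (0.064) or aerobic replicate 1 (0.1).

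The balance of urea and ammonium uptake transcripts was compared within each library. DUR3 exceeded MEP2 per kilobase by 4.99 and 4.22 times with the micro-aerobic label, and was at 0.709 and 0.848 of it with the aerobic label. In the mutant the ratio was 0.00814 and 0.00858 in batch and 0.0287 and 0.0335 in chemostat. The 4 groups did not overlap in this ratio, and only the libraries labelled micro-aerobic held more DUR3 than MEP2.

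**Figure D2:**
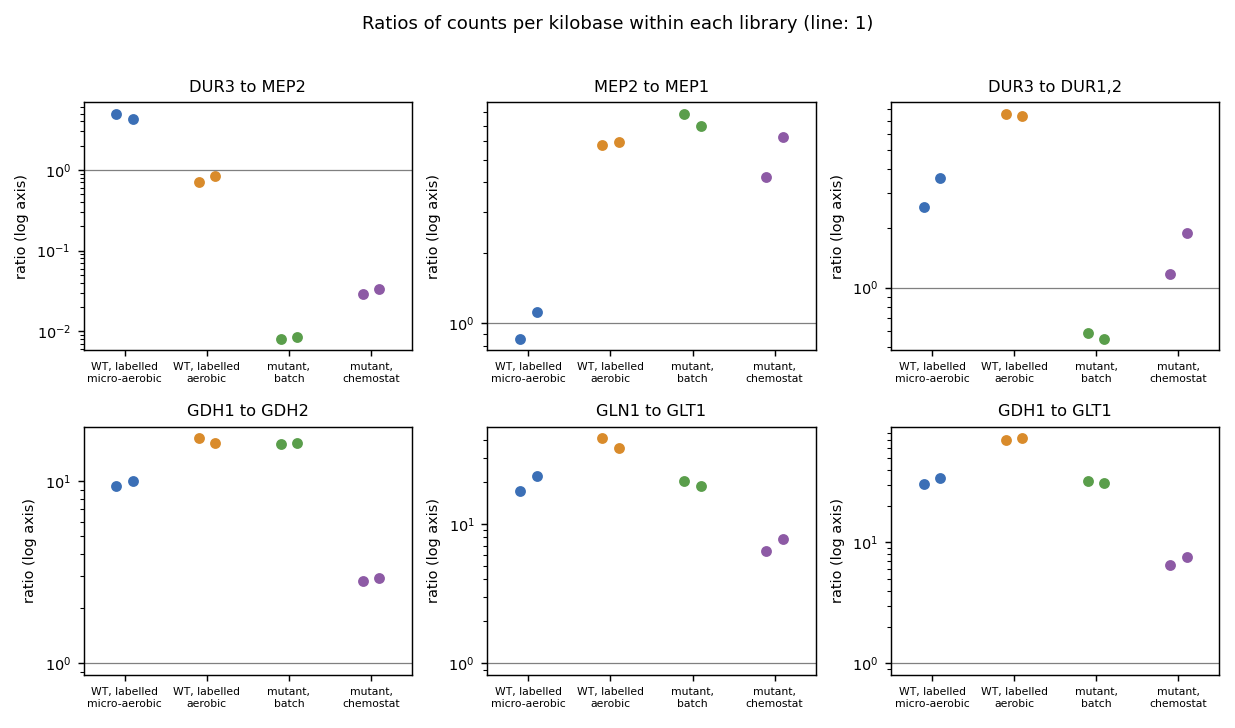
Ratio of counts per kilobase between 2 genes within each library (points, log axis; grey line at 1), by group, for 6 pairs of urea, ammonium and glutamate genes. DUR3 to MEP2 falls from 4.99 in a library labelled micro-aerobic to 0.00814 in a mutant batch library, and the pairs with GDH1 or GLN1 over GLT1 or GDH2 are lowest in the mutant chemostat.

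GDH1 encodes the NADP-dependent glutamate dehydrogenase that fixes ammonium (OPAR_003593, chromosome 6, 40610 to 41989, plus strand). Per kilobase it was the most abundant of the 9 genes in both wild-type groups and in the mutant batch, by group mean. Its CPM were 2336 and 2115 with the micro-aerobic label, 2937 and 3251 with the aerobic label, 4646 and 4942 in the mutant batch and 1618 and 1380 in the mutant chemostat. The mutant batch was highest and the mutant chemostat lowest, with no overlap between any groups. The largest of its changes lay between them, at 1.68 ± 0.15 (adjusted p = 8.3e-07). The wild-type labels differed by -0.48 (adjusted p = 0.017), a call lost without micro-aerobic replicate 1 (adjusted p = 0.0649) or replicate 2 (0.153). The mutant chemostat lay below the wild type labelled micro-aerobic by -0.57 (adjusted p = 0.014), which was also lost without micro-aerobic replicate 1 (0.113) or 2 (0.0903) or chemostat replicate 2 (0.0518).

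GLN1, the glutamine synthetase gene (OPAR_004786, chromosome 7, 471105 to 472353, plus strand), stood apart in the mutant batch alone. Its CPM were 1214 and 1235 with the micro-aerobic label, 1563 and 1423 with the aerobic label, 2642 and 2689 in the mutant batch and 1428 and 1298 in the mutant chemostat. It rose in the mutant batch by 0.97 over the mutant chemostat (adjusted p = 5.5e-05), by 0.84 over the wild type labelled aerobic (adjusted p = 0.00019) and by 1.12 over the wild type labelled micro-aerobic (adjusted p = 1.8e-05). Among the 3 chemostat groups no difference passed: -0.29 between the wild-type labels (adjusted p = 0.1, but 0.0339 with DESeq2 and 0.0318 without aerobic replicate 2), -0.13 for the mutant chemostat against the aerobic label (adjusted p = 0.41, and 0.048 on the log2 scale with upper-quartile scaling) and 0.15 against the micro-aerobic label (adjusted p = 0.41).

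GLT1, which encodes the NADH-dependent glutamate synthase (OPAR_001683, chromosome 3, 799334 to 805979, plus strand), was lowest with the aerobic label and highest in the mutant chemostat, where GDH1 was lowest. It stood at 372 and 299 CPM with the micro-aerobic label, 202 and 216 CPM with the aerobic label, 696 and 764 CPM in the mutant batch and 1190 and 880 CPM in the mutant chemostat. Every mutant library lay above every wild-type library. The mutant chemostat exceeded the wild type labelled aerobic by 2.31 on the log2 scale (adjusted p = 8.6e-08). Between the wild-type labels it rose by 0.69 ± 0.17 in the libraries labelled micro-aerobic (adjusted p = 0.0043; 0.074 without micro-aerobic replicate 1). In the mutant it was lower in batch by -0.50 (adjusted p = 0.019), a call that was lost without batch replicate 1 (0.159), batch replicate 2 (0.0629) or chemostat replicate 1 (0.181).

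GDH2, known by its homolog YDL215C and without a name in the annotation (OPAR_002881, chromosome 5, 171278 to 174385, minus strand), encodes the NAD-dependent glutamate dehydrogenase that breaks glutamate down. Its CPM were 562 and 473, 385 and 451, 652 and 689, and 1280 and 1059 in the wild type labelled micro-aerobic, the wild type labelled aerobic, the mutant batch and the mutant chemostat. The mutant chemostat stood above all other libraries, by 1.48 over the wild type labelled aerobic (adjusted p = 2.4e-06) and with the batch lower than it by -0.80 (adjusted p = 0.0006). The wild-type groups were not separated (0.31, adjusted p = 0.11, and 0.0432 with upper-quartile scaling). Between the mutant batch and the wild type labelled micro-aerobic the change of 0.37 did not pass (adjusted p = 0.058), and it passed under 8 of the 13 alternatives run for that comparison.

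**Figure D3:**
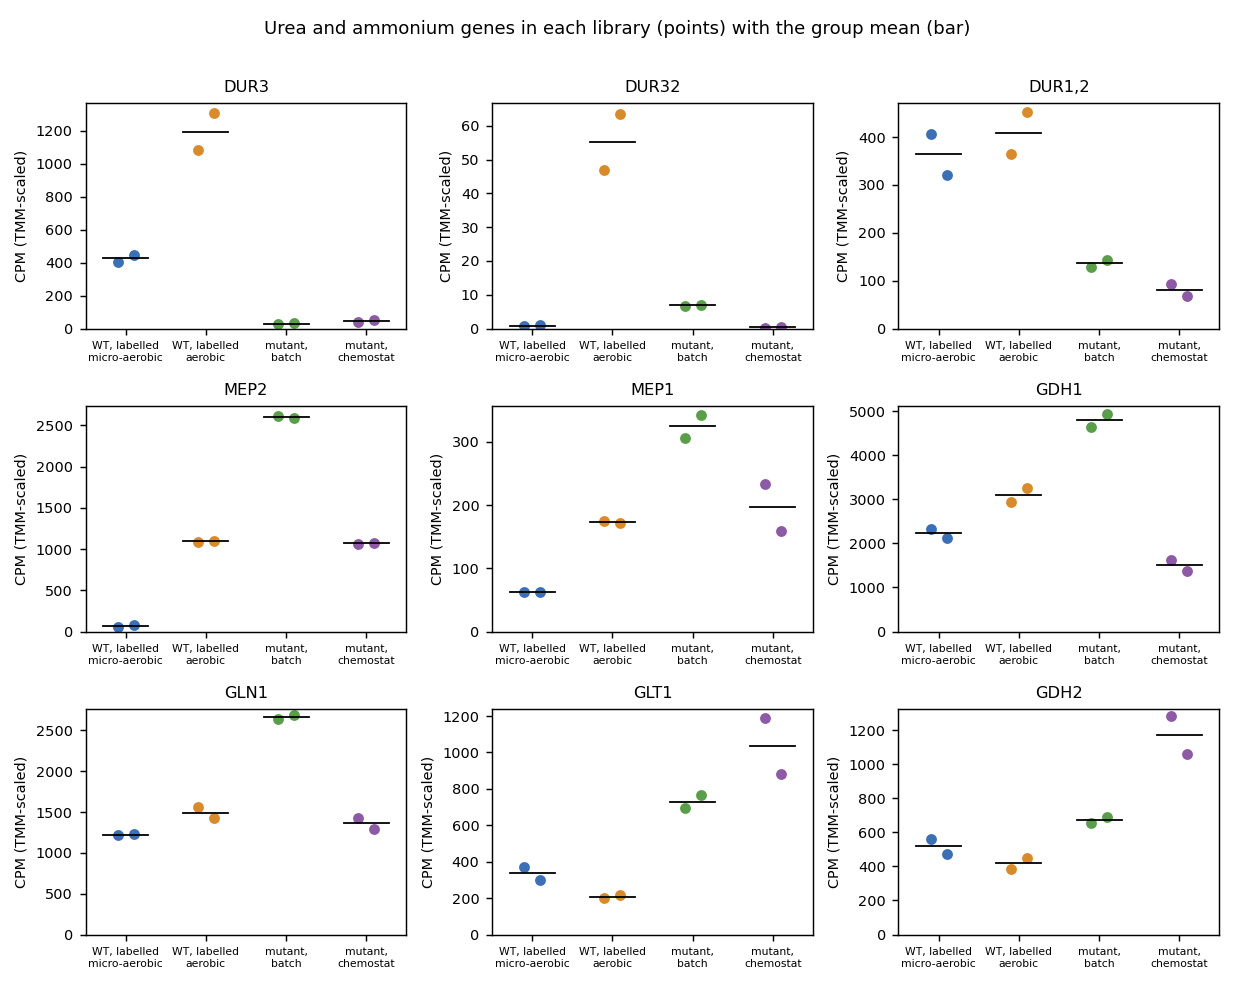
CPM of each of the 9 genes in each of the 8 libraries (points) with the mean of each group of 2 (black bar), on axes that start at 0. The group with the highest mean differs between genes: DUR3 and DUR32 are highest with the aerobic label, MEP2 and MEP1 in the mutant batch, and GLT1 and GDH2 in the mutant chemostat.

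The glutamate and glutamine enzymes were also compared by their ratios within a library. GDH1 exceeded GDH2 per kilobase by 9.37 and 10.1 times with the micro-aerobic label and 17.2 and 16.2 times with the aerobic label, by 16.0 and 16.1 times in the mutant batch and by 2.85 and 2.94 times in the mutant chemostat. GLN1 exceeded GLT1 by 17.3 and 22.0, 41.2 and 35.1, 20.2 and 18.7, and 6.39 and 7.85 times in the same order of groups. GDH1 exceeded GLT1 by 30.2 and 34.0, 70.0 and 72.6, 32.2 and 31.2, and 6.55 and 7.56 times. All 3 ratios were lowest in the mutant chemostat without overlap with another group, and GLN1 to GLT1 and GDH1 to GLT1 were highest with the aerobic label.

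Counted by comparison, 5 of the 9 genes were lower with the micro-aerobic label (DUR3, DUR32, MEP2, MEP1 and GDH1), GLT1 was higher and 3 did not pass, where 45.5% of all 5265 genes tested passed (23.2% higher, 22.3% lower). The members' median absolute log2 change was 0.686, beside 0.412 over all genes. Between mutant batch and chemostat all 9 passed, beside 51.4% of all genes (24.5% higher, 26.8% lower): 6 rose in batch (DUR32, DUR1,2, MEP2, MEP1, GDH1 and GLN1) and 3 fell (DUR3, GLT1 and GDH2), with a median absolute change of 0.802 beside 0.456. A share of that size among all genes leaves little to read from the count itself. With at least a 2-fold change, 4 and 3 of the 9 passed in these 2 comparisons, beside 16.8% and 17.3% of all genes. DUR32 is in both tallies. It passed the filter on low counts only through groups where it was high, so its calls add no support to them.

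Against the wild type labelled aerobic, 2 members were higher in the mutant chemostat (GLT1 and GDH2), 4 were lower (DUR3, DUR32, DUR1,2 and GDH1) and 3 did not pass, beside 60.7% of all genes called (31.3% higher, 29.4% lower). A change of at least 2-fold was called for 6 of the 9, DUR32 among them, beside 25.1% of all genes. Of all genes 1648 were higher and 1547 lower there, or 2057 and 1180 with upper-quartile scaling, which moved the median of all genes to 0.209 from 0.031. In the mutant batch against the same group 6 were higher and 3 lower, beside 48.2% called (24% higher, 24.2% lower). The 3 lower ones were the urea genes DUR3, DUR32 and DUR1,2. Over all genes 1262 were higher and 1275 lower, or 1729 and 978 with upper-quartile scaling. DUR32 passed the filter on low counts only through groups where it was high, so its calls add no support to these tallies.

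Against the wild type labelled micro-aerobic, 4 members were higher in the mutant chemostat (MEP2, MEP1, GLT1 and GDH2) and 3 lower (DUR3, DUR1,2 and GDH1), beside 27.1% of all genes called (13.7% higher, 13.4% lower). A change of at least 2-fold was called for 6 of the 9, beside 5.01% of all genes, and the members' median absolute change was 1.62 beside 0.309. The counts over all genes were 722 higher and 703 lower, or 943 and 492 with upper-quartile scaling. This comparison over all genes leaned most on single libraries, with 670 genes called without micro-aerobic replicate 1, 280 without micro-aerobic replicate 2 and 440 without chemostat replicate 1. In the mutant batch 6 members were higher and 2 lower (DUR3 and DUR1,2), beside 43.8% called (22.2% higher, 21.6% lower), and a change of at least 2-fold was called for 8 of the 9, beside 13.7%. In the mutant batch against the wild type labelled aerobic it was called for 5 of the 9, beside 16.8%. Both of these mutant batch tallies hold DUR32. That gene passed the filter on low counts only through groups where it was high, so its calls add no support to them. These 4 comparisons of mutant with wild type share their groups, so they are not independent of each other.

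**Figure D4:**
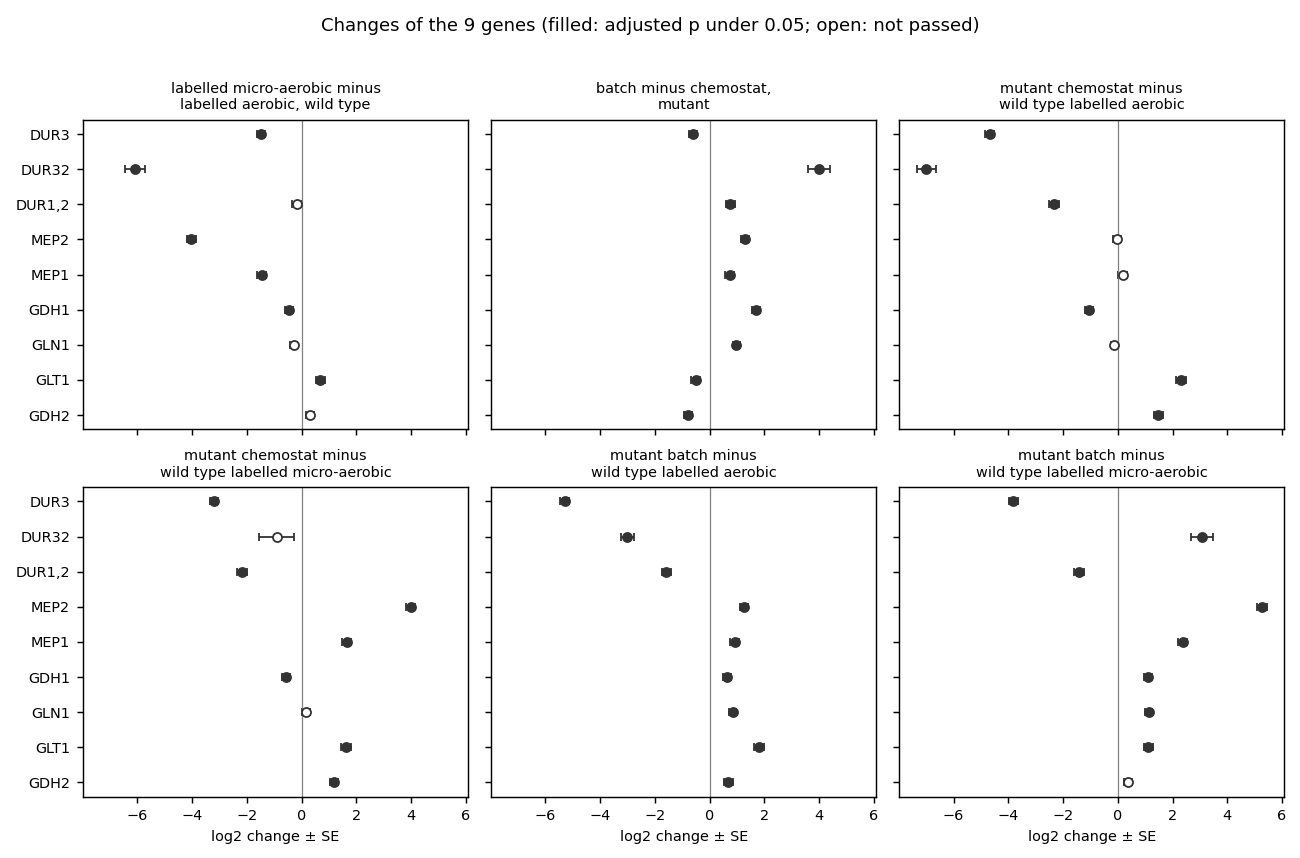
Log2 change with its SE for each of the 9 genes in the 6 pairwise comparisons (filled: adjusted p under 0.05; open: not passed). DUR3 lies left of 0 in all 6 panels, DUR1,2 left of 0 in the 4 comparisons of mutant with wild type, and GLT1 right of 0 in those 4.

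Genes whose profile over the 8 libraries lay nearest to that of a member were sought among 5070 genes, by the root mean square distance between log2 CPM centred on each gene's mean. Nearest to DUR3 were OPAR_003876 (distance 0.466, listed homolog YNR060W, the ferric reductase gene FRE4), the urea transporter family gene OPAR_002094 (0.892), OPAR_005164 (0.921, no homolog listed) and OPAR_001529 (1.06, listed homolog YOR049C, the sphingoid base transporter gene RSB1), where DUR3 itself varied by a root mean square of 2.19. OPAR_003876 stood at 183, 351, 15.0 and 10.3 CPM in the wild type labelled micro-aerobic, the wild type labelled aerobic, the mutant batch and the mutant chemostat.

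Nearest to MEP2 were MAE1 (OPAR_003007, malic enzyme; 0.849), OPAR_000387 (0.918, listed homolog YIR028W, the allantoin permease gene DAL4), OPAR_004064 (1.16, no homolog listed) and OPAR_003195 (1.21), where MEP2 varied by 1.99. OPAR_003195 is 1 of 8 genes of the annotation with a GATA zinc finger domain, the class to which the nitrogen regulators Gln3 and Gat1 of S. cerevisiae belong. No homolog is listed for it, and listed homologs of GLN3 and GAT1 were looked for and not found. OPAR_003195 had group means of 8.38, 16.6, 50.1 and 36.5 CPM in the same order of groups. It was lower with the micro-aerobic label (-0.99 ± 0.23, adjusted p = 0.0034), and batch against chemostat did not pass (0.46, adjusted p = 0.054, but 0.042 with RLE scaling). Unlike MEP2, which did not pass there, OPAR_003195 was higher in the mutant chemostat than in the wild type labelled aerobic (1.13 ± 0.20, adjusted p = 0.00033).

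Nearest to DUR1,2, which varied by 0.990, were OPAR_004519 (0.323, no homolog listed, at most 10.9 CPM as a group mean), OPAR_005050 (0.428, listed homolog YNL130C, the cholinephosphotransferase gene CPT1), OPAR_003685 (0.476, listed homolog YOL103W, the inositol transporter gene ITR2) and the fatty acid desaturase gene OLE1 (0.513). OLE1 stood at 3582 and 4954 CPM as means of the wild-type groups labelled micro-aerobic and aerobic, and at 1209 and 1664 CPM in the mutant batch and chemostat. It differed from DUR1,2 within each strain. OLE1 was called lower in batch than in chemostat (-0.46, adjusted p = 0.014), where DUR1,2 was higher. It was also called lower with the micro-aerobic label (-0.47, adjusted p = 0.014), where DUR1,2 did not pass. Tween 80, a source of oleic acid, was named in the wild-type media only, and its part in the level of any gene was not tested. Likeness here is measured over 8 libraries in 4 groups and is a description.

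Other genes of nitrogen use were read from 7 lists, where the median log2 change over all genes was 0.0249 between the wild-type labels and -0.0224 between mutant batch and chemostat. The counts of called genes in each list are to be read against the shares over all genes, which were 45.5% between the wild-type labels (23.2% higher, 22.3% lower) and 51.4% between mutant batch and chemostat (24.5% higher, 26.8% lower). Of 14 regulators looked for, 8 had a gene. With the micro-aerobic label 5 of the 8 were higher and none lower, beside 23.2% and 22.3% of all genes (2 higher without micro-aerobic replicate 1, 3 without aerobic replicate 1), with a median log2 change of 0.457. The largest were PUT3 (proline use, 0.85; adjusted p = 0.0073, and 0.063 without micro-aerobic replicate 1 or 0.066 without aerobic replicate 1), NPR1 (0.72, adjusted p = 0.0053) and UGA3 (use of 4-aminobutyrate, 0.70, adjusted p = 0.014; 0.083 and 0.097 without the same libraries). NPR1, a kinase that in S. cerevisiae keeps ammonium permeases such as Mep2 active, also rose in the mutant batch over the mutant chemostat, by 0.85 (adjusted p = 0.00095). In that comparison 2 regulators were higher and 4 lower, beside 24.5% and 26.8% of all genes (1 lower without batch replicate 1 or 2, and 2 without chemostat replicate 1; median -0.399), with UGA3 lowest (-0.97, adjusted p = 0.0012).

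Among 16 genes for other nitrogen sources, 5 were higher and 5 lower with the micro-aerobic label (23.2% and 22.3% of all genes), and 4 were higher and 6 lower in the mutant batch (24.5% and 26.8%), with medians of 0.0699 and -0.0862. The share higher in the mutant batch was near that of all genes. Between the wild-type labels 3 were higher without micro-aerobic replicate 1, and 3 lower without micro-aerobic replicate 2. ATO1, whose S. cerevisiae homolog is an acetate transporter of a family linked to ammonium export, stood at 7460 ± 232 CPM with the micro-aerobic label, where MEP2 was lowest, and at 192 ± 4.53 CPM with the aerobic label (SD, n = 2). ATO1 was also lower in the mutant batch, at 183 ± 25.0 CPM, than in the mutant chemostat, at 2619 ± 15.3 CPM (-3.84, adjusted p = 3.4e-10), so it ran against MEP2 in both comparisons. The proline permease gene PUT4 was higher with the micro-aerobic label (2.37, adjusted p = 1.6e-08). PUT1 and PUT2 of proline breakdown were called lower there (-0.60 and -0.71). DAL3, ureidoglycolate lyase, which releases urea from an allantoin product, was also lower (-2.29, adjusted p = 1.6e-06). Of the other DAL genes, DAL4 was called lower (-1.78), DAL1 and DAL5 were called higher (0.54 and 0.70), and DAL2 did not pass (0.067). In the mutant batch PUT2 of proline breakdown was lower (-1.39, adjusted p = 2.3e-05) and DAL4 higher (1.35, adjusted p = 2.1e-06). UGA4, a permease for 4-aminobutyrate, separated the strains, at group means of 3.11 and 4.95 CPM in the wild type and 48.1 and 51.0 CPM in the mutant batch and chemostat. The only nitrate gene found by name, YNR1 (nitrate reductase), stayed low at 7.20 to 13.5 CPM over the group means.

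The partners of glutamate (6 of 8 found) were led by IDP2, the cytosolic NADP-dependent isocitrate dehydrogenase that supplies 2-oxoglutarate. It stood at 1349 ± 40.6 CPM with the micro-aerobic label, 13.4 ± 2.89 CPM with the aerobic label, 5.65 ± 0.202 CPM in the mutant batch and 1169 ± 126 CPM in the mutant chemostat. The aspartate aminotransferase gene AAT1 ran the other way, lower by -1.04 with the micro-aerobic label (adjusted p = 2.6e-05) and higher by 2.90 in the mutant batch (adjusted p = 1.6e-09). AAT2, also an aspartate aminotransferase gene, was called in the direction of IDP2 in both comparisons (0.72 and -1.74). In all, 4 of the 6 were higher and 2 lower with the micro-aerobic label, where 45.5% of all genes were called, and 3 were higher and 2 lower in the mutant batch, where 51.4% were (medians 0.773 and 0.411).

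Enzymes that spend the amide nitrogen of glutamine were higher in the mutant batch, as GLN1 was. All 12 genes found of 14 looked for were higher in the mutant batch than in the mutant chemostat, beside 24.5% of all genes, with a median log2 change of 0.971, and 10 to 12 were called over the alternatives. The largest changes were those of the asparagine synthetase gene ASN1 (1.81, adjusted p = 1.3e-07), HIS7 of histidine synthesis (1.58, adjusted p = 2.6e-07) and ADE4, the first step of purine synthesis (1.45, adjusted p = 1.2e-06). ASN1 stood at 956 ± 36.7 CPM in batch and 273 ± 24.8 CPM in chemostat. Between the wild-type labels 3 of the 12 were higher and 4 lower, beside 23.2% and 22.3% of all genes (2 lower without micro-aerobic replicate 1 or 2; median -0.228). Of 7 arginine genes, 4 were higher and 2 lower with the micro-aerobic label (45.5% of all genes called), led by ARG7 (2.05, adjusted p = 4.8e-07), and 5 were higher and 1 lower in the mutant batch (51.4% called), led by ARG8 (2.28, adjusted p = 2.6e-08; medians 0.426 and 0.547). The lower calls among them were the least stable, at 0 to 2 in both comparisons over the alternatives, and 3 genes were higher in the mutant batch without batch replicate 2.

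Urea amidolyase carries biotin, so genes of biotin uptake, biotin attachment and other biotin enzymes were also read (4 of 6 found). The biotin transporter gene VHT1 stood at 0.479 ± 0.452 CPM in the libraries labelled micro-aerobic, 92.3 ± 11.1 CPM in those labelled aerobic, 9.27 and 12.7 CPM in the 2 libraries of the mutant batch and 1.14 ± 0.481 CPM in the mutant chemostat. Its raw counts were only 1 and 5 with the micro-aerobic label and 15 and 9 in the mutant chemostat. Its changes are therefore limited by depth, and its calls lend them no support. Like DUR32, VHT1 had its highest level with the aerobic label and its second in the mutant batch. DUR1,2 instead was lower in the mutant batch than in both wild-type groups. The biotin ligase gene BPL1 was higher with the micro-aerobic label (2.04, adjusted p = 7.3e-08). In that comparison 3 of the 4 genes were higher and 1 lower, beside 45.5% of all genes called. The higher ones were BPL1 and the biotin enzyme genes ACC1 and PYC1, and the lower one was the transporter gene VHT1. In the mutant batch 2 of the 4 were higher and none lower, beside 51.4% of all genes called (1 lower without mutant chemostat replicate 2 or aerobic replicate 2; medians 1.38 and 0.411).

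**Figure D5:**
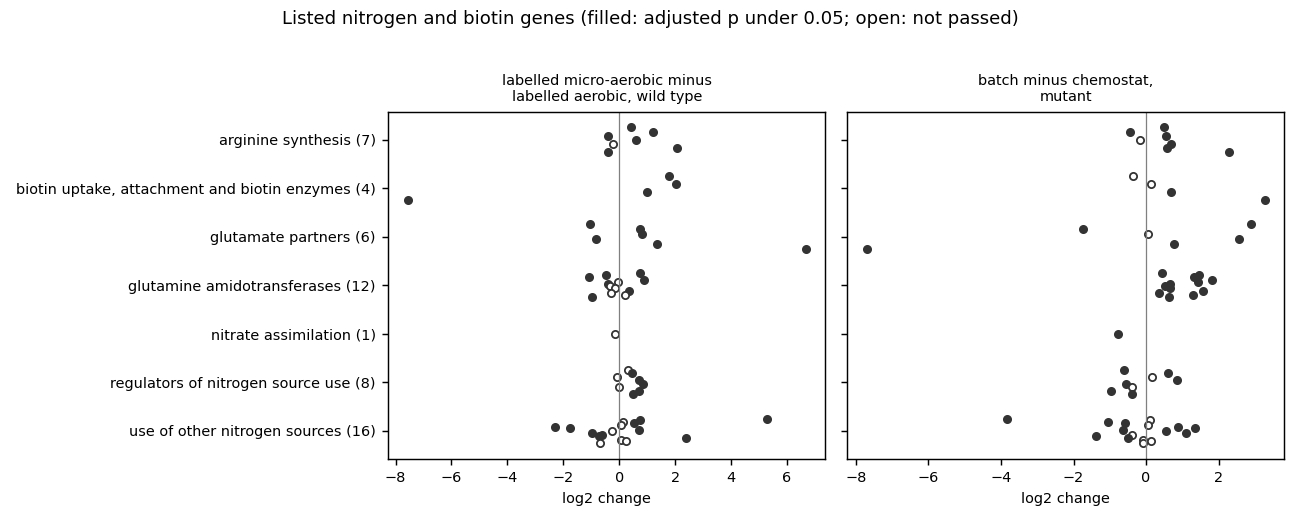
Log2 change of each listed gene (points; filled: adjusted p under 0.05, open: not passed) by list, with the number of genes in brackets, between the wild-type labels (left) and between mutant batch and chemostat (right). The 12 glutamine amidotransferases all lie right of 0 on the right-hand panel, and IDP2 (6.66 and -7.69), VHT1 (-7.55 and 3.27) and ATO1 (5.28 and -3.84) are the 3 genes farthest from 0 in each panel.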

How the data were processed

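The authors deposited counts of read pairs per gene, not normalized. Per the file headers, featureCounts 1.6.0 was run on gene features, keeping only pairs whose ends both mapped and which were not chimeric, with no strand setting. The submitters' processing notes also name edgeR 3.28.1, SAMtools 1.3.1 and Bowtie 1.2.1.1. Coordinates are those of the deposited annotation of strain DL-1, whose build has no name in the labels or file headers. The table holds 4 further columns, which were not used.

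Groups came from the labels. Nothing says whether the biological replicates were separate cultures, so a p-value here measures only how these samples spread, which may be technical. Counts were tested with edgeR 4.0.16 (R 4.3.3): filterByExpr left 5265 genes, TMM factors ran from 0.859 to 1.12, and all 8 libraries entered 1 fit with a mean per group (4 residual degrees of freedom; common biological coefficient of variation 0.118). The quasi-likelihood F test was run two-sided on each pair of groups, adjusted after Benjamini-Hochberg over all genes, at a threshold of 0.05. CPM use TMM-scaled library sizes, and centred profiles log2 CPM with a prior count of 3, over genes with at least 10 CPM in a group. The procedure was tested on simulated data. Alternatives were RLE (the scaling of DESeq2) and upper-quartile scaling, no filter, DESeq2 1.42.0, only the 2 groups compared, each library left out and a replicate block.

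The members, the lists, the comparisons and the rule for named genes were chosen with earlier results of these data known. Named were all members, up to 3 genes per list with the largest change among those called, and the 4 nearest profiles of DUR3, MEP2 and DUR1,2. S. cerevisiae homologs come from the authors' deposited table, which lists 1 for 3250 genes, and do not settle which member of a family a gene is. Genes named by domain, the genes next to DUR32, and AAT2, PUT1, DAL1, DAL2 and DAL5 were added after the values were seen. Counting intervals cover counting error only.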

Additional observations from a re-analysis of the deposited data

How the results depend on the processing

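The 9 genes in 6 comparisons gave 54 changes, 45 of them called, and under 14 alternative settings 43 of the 54 kept direction and side of the threshold throughout. Of 710 values, 685 were of that kind, 10 lost a call, 12 gained one and 3 changed sign; no called change turned. The 3 that changed sign were uncalled values of the mutant chemostat against the wild type labelled aerobic: MEP2 (0.14) and GLN1 (0.048) with upper-quartile scaling, and MEP1 with one mutant chemostat library left out (-0.12 without replicate 1, 0.41 without replicate 2). The calls lost stand beside the genes above, and the cause was not tested. With 1 library left out, the lone library is assumed to vary like the other groups. The genes called then ran from 1593 to 2648 between the wild-type labels, 1745 to 2938 between mutant batch and chemostat, 2757 to 3304 for mutant chemostat against the aerobic label, 280 to 2105 against the micro-aerobic label, 1664 to 2829 for mutant batch against the aerobic label and 1462 to 2608 against the micro-aerobic label. Scaling, filter, tool and 2-group fits kept each count within 1.5 times. The mutant batch and chemostat titles share codes that could pair them; the wild-type titles share 1 number at most, so no paired fit was made there. The mutant libraries' deviations correlated at -0.245; with the replicate block 2569 genes were called beside 2704, and no member call was lost, and with the pairing crossed, chosen after seeing the data, 2806. DUR32 and OPAR_000021 are limited by depth in the libraries labelled micro-aerobic and the mutant chemostat, with at most 6 counts per library. Both passed the filter on low counts only through the wild type labelled aerobic and the mutant batch, where they were high. VHT1 was also limited by depth, with 1 and 5 counts in the libraries labelled micro-aerobic and 15 and 9 in the mutant chemostat.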
